A study of Mus musculus with 10 samples.

Results

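Intestinal epithelium moves salt and water in both directions. Na+/H+ exchangers and Cl-/bicarbonate exchangers in the apical membrane absorb NaCl. Secretion runs through the apical chloride channel CFTR, which basolateral cotransporters supply with chloride and bicarbonate, and crypt cells are its classic site. The 8 genes described here encode transporters of both routes: the apical Na+/H+ exchangers Slc9a3 (NHE3) and Slc9a2 (NHE2), the apical anion exchangers Slc26a3 (DRA) and Slc26a6 (PAT1), the channel Cftr, the basolateral Na+-K+-2Cl- cotransporter Slc12a2 (NKCC1), the basolateral Na+-bicarbonate cotransporter Slc4a4 (NBCe1) and the apical Na+-sulphate cotransporter Slc13a1 (NaS1). They were taken by symbol from the deposited estimated counts. Each symbol had 1 Ensembl ID among 36401 genes, and all 8 passed the filter on low counts.

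The 10 libraries are ileal RNA of male C57Bl6 mice that had been fed a diet with 60% of its energy from fat for 6 weeks before surgery at 8 weeks of age. In the VSG group, 5 mice had vertical sleeve gastrectomy, which removes most of the stomach, and then ate ad libitum. In the sham group, called SPF in the labels, 5 mice had sham surgery and were pair-fed to the VSG mice, so that surgery and feeding schedule cannot be told apart. All mice received liquid Osmolite for 4 days around surgery, and terminal ileum was taken about 8 weeks after it, following an overnight fast and 1 hour after a 0.5 mL Osmolite gavage. Estimated counts summed to between 15364651 and 30401105 in VSG libraries and between 16848364 and 34058181 in sham libraries, and the 8 genes had between 51 and 21938 counts per library.

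In 3 libraries, defining genes of the ileum were low. Gata4, a regulator of proximal enterocytes, was at 109 to 183 CPM (read counts scaled to the TMM-normalised library size) in VSG 2, sham 2 and sham 4, against 1.72 to 6.28 CPM in the other 7 libraries. Lactase (Lct) stood at 1449 to 2641 CPM in those 3 libraries and at 3.72 to 24.6 CPM in the other 7. Of the other upper small intestine markers, Onecut2, Adh6a and Gip were also higher in the 3 without overlap. Cybrd1 overlapped, at 5.01 to 5.75 CPM in the 3 and 3.58 to 7.04 CPM in the 7. Slc40a1 was lower, at 3.68 to 13.6 CPM in the 3 and 35.8 to 98.2 CPM in the 7. Pdx1 did not pass the filter, with 260 counts in sham 4 and at most 9 in any other library. The 3 libraries also differed among themselves in Onecut2, at 137 CPM in sham 4, 10.6 CPM in VSG 2 and 2.91 CPM in sham 2. Fabp6, which binds bile acids in ileal enterocytes, was at 38.9 to 62.0 CPM in the 3 and at 2556 to 6106 CPM in the 7. These 3 libraries, 1 VSG and 2 sham, are called Gata4-high below, since they lie above the largest gap in Gata4. The epithelial marker Epcam was detected throughout, at 2083 to 3565 CPM in VSG and 1816 to 3958 CPM in sham. Of 7 large intestine markers, Car1, Best2, Hoxd13 and Hoxb13 had at most 10 counts in any library. Aqp8 had 163 counts in sham 4 and at most 10 in any other library. Cyp2c55 was at 5.20 to 52.3 CPM in VSG and 10.9 to 52.9 CPM in sham, and Slc37a2 at 1.13 to 2.64 CPM in VSG and 1.49 to 10.97 CPM in sham.

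Slc9a3, which exchanges luminal Na+ for H+ and is the main route of NaCl absorption in the small intestine, had the widest range of all members. It stood at 19.6, 156, 40.4, 19.0 and 12.4 CPM in VSG 1 to VSG 5, against 5.84, 68.1, 2.01, 94.8 and 27.4 CPM in sham 1 to sham 5. The ratio of the highest to the lowest library was 77.5, and the groups overlapped between 12.4 and 94.8 CPM, with sham 1 and sham 3 below every VSG library. The 3 highest values belonged to the 3 Gata4-high libraries, at 68.1 to 156 CPM, against 2.01 to 40.4 CPM in the other 7. The log2 fold change of VSG over sham was 0.32 ± 0.96 (SE), and its 95% interval reached down to -1.79 and up to 2.43 (edgeR adjusted p = 0.989). Its sign depended on which libraries were left out. It was -0.80 without VSG 2, where Gata4-high libraries remained in sham only, and 0.96 without sham 4. In the 7 libraries without the Gata4-high ones it was 0.95.

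Slc9a2, the second apical Na+/H+ exchanger, came nearest to a difference between the groups. It stood at 284, 167, 246, 310 and 298 CPM in VSG 1 to VSG 5, against 240, 235, 216, 151 and 166 CPM in sham 1 to sham 5. Of the VSG libraries, 4 lay above every sham library, and VSG 2 lay among the lowest. Slc9a2 averaged 261 ± 57.8 CPM over the VSG libraries and 202 ± 40.4 CPM over the sham libraries (SD, n = 5 each). The log2 fold change was 0.37 ± 0.20 (SE), with an interval from -0.07 to 0.81 (edgeR adjusted p = 0.977). These p-values set the difference between the groups against the spread between the libraries, and the adjusted ones are also corrected over all genes tested. The exact two-sided permutation p of its log2 CPM was 0.127, where 0.00794 is the smallest p that 5 against 5 libraries can give. Without VSG 2 the fold change was 0.50 and the groups did not overlap. In the 7 libraries without the Gata4-high ones, Slc9a2 stood at 246 to 310 CPM in VSG and 166 to 240 CPM in sham, with a log2 fold change of 0.46 ± 0.18 (SE) and an interval from 0.06 to 0.86 (edgeR adjusted p = 0.695).

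Slc26a3 and Slc26a6 exchange luminal chloride against bicarbonate beside the Na+/H+ exchangers, and Slc26a6 also carries oxalate. Slc26a3 stood at 67.3, 120, 105, 111 and 94.0 CPM in VSG 1 to VSG 5, against 81.0, 163, 66.0, 167 and 93.2 CPM in sham 1 to sham 5. The groups overlapped, and the Gata4-high libraries were the highest, at 120 to 167 CPM against 66.0 to 111 CPM in the other 7. Its log2 fold change was -0.20 (-0.80 to 0.41, edgeR adjusted p = 0.977) in 10 libraries and 0.24 (-0.23 to 0.70, edgeR adjusted p = 0.823) in the 7, so its sign differed without the Gata4-high libraries.

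Slc26a6 was the steadiest member. It stood at 345, 344, 353, 430 and 436 CPM in VSG 1 to VSG 5, against 281, 358, 393, 476 and 299 CPM in sham 1 to sham 5, with a ratio of highest to lowest of 1.69. The VSG range lay inside the sham range. Slc26a6 averaged 381 ± 47.2 CPM over the VSG libraries and 361 ± 78.2 CPM over the sham libraries (SD, n = 5 each), and the log2 fold change was 0.08 (-0.30 to 0.46, edgeR adjusted p = 0.985).

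Promoter windows of 3 apical exchangers are shown because Slc9a3 and Slc26a3 were both higher in the Gata4-high libraries while Slc26a6 was not. They are RefSeq windows from 250 bases before to 50 bases after the start, 5′ to 3′, in build GRCm38.p6, which is not the build of the counts (mm9). They lie on the + strand at chr13:74121163-74121462 (Slc9a3), chr12:31437969-31438268 (Slc26a3) and chr9:108853793-108854092 (Slc26a6). Capitals mark matches to the motifs searched on both strands: the GATA motif as AGATAA and also as TGATAA, the CDX motif as TTTATG, part of the HNF1 site as GTTAAT, the core of the HNF4 site as AAAGTCC, and the GC box as GGGCGG. On the opposite strand a GC box reads CCGCCC.
Slc9a3: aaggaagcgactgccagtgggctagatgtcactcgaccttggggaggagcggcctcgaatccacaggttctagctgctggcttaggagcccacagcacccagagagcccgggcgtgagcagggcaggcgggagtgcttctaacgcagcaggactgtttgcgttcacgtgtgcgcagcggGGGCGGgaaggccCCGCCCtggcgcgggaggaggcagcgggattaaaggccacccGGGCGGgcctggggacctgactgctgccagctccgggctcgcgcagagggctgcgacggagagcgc
Slc26a3: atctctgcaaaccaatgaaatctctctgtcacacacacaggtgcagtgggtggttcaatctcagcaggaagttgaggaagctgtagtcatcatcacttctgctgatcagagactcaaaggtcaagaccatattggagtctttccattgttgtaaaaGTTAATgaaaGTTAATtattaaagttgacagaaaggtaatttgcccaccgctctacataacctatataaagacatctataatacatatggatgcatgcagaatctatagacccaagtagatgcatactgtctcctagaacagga
Slc26a6: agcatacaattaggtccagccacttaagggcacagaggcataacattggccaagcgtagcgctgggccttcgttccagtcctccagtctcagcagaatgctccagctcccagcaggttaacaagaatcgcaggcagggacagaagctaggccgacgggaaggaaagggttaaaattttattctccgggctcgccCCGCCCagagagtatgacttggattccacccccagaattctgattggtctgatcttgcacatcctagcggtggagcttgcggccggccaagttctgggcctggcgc
The Slc9a3 window held 3 GC boxes, starting 71, 58 and 16 bases before the start, and the Slc26a6 window held 1, 56 bases before it. The Slc26a3 window held no GC box and 2 copies of GTTAAT, 94 and 84 bases before the start. Of all 32851 RefSeq windows, 35.7% held a GC box, 7.10% GTTAAT, 18.6% a GATA match, 11.9% TTTATG and 4.21% AAAGTCC. A match describes letters, not a bound site. Windows were matched for 5 of the 8 members.

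**Figure D1:**
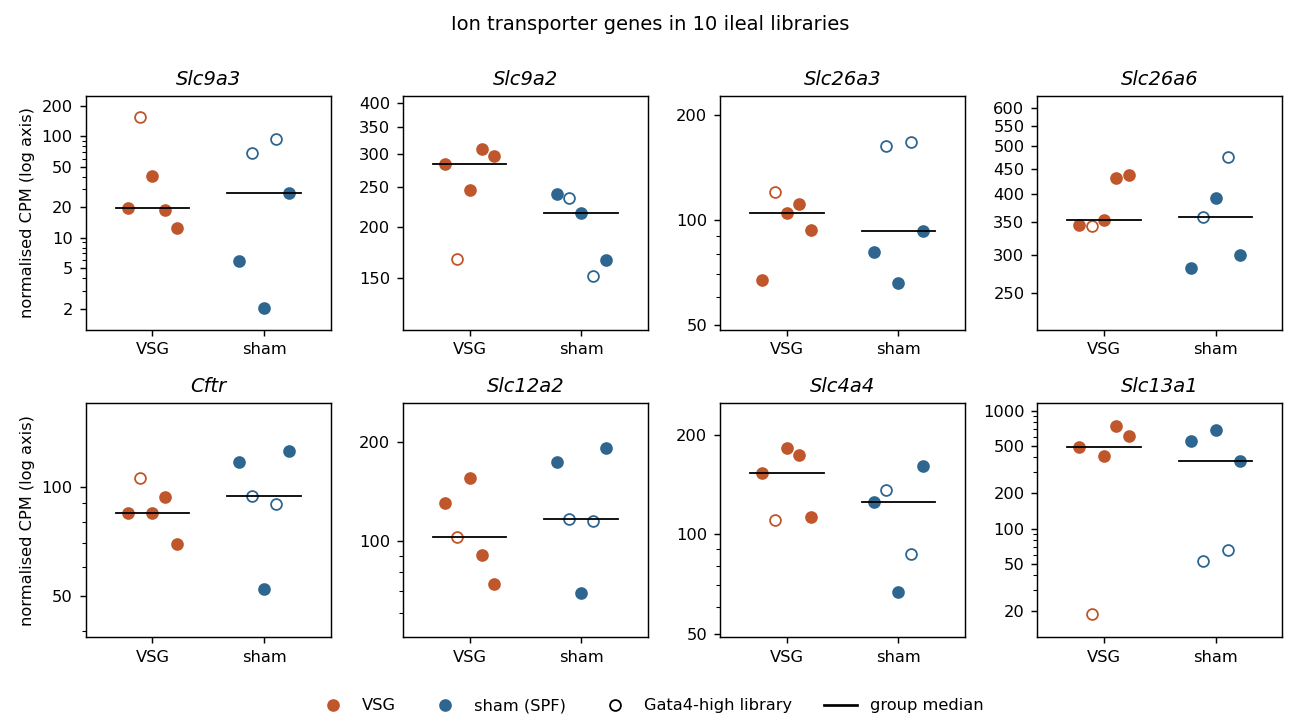
Normalised CPM on a log axis of the 8 transporter genes in each of 5 VSG and 5 sham (SPF) libraries; each point is 1 library, open points are the Gata4-high libraries and lines are group medians. Open points are the highest for Slc9a3 and Slc26a3 and the lowest for Slc13a1, and 4 of 5 VSG points lie above all sham points for Slc9a2.

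Cftr, the cyclic nucleotide-activated chloride channel of secretion, stood at 84.7, 106, 84.8, 93.7 and 69.4 CPM in VSG 1 to VSG 5, against 117, 94.5, 52.2, 89.5 and 125 CPM in sham 1 to sham 5. Sham libraries held both the highest and the lowest value, and the VSG range lay within the sham range. The log2 fold change was -0.13 (-0.60 to 0.35, edgeR adjusted p = 0.982). In the GENCODE M21 annotation Cftr shares 129 of 7765 exon bases with an antisense gene, Gm15592, whose reads may not be separable here.

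Slc12a2, which loads secretory cells with chloride, stood at 131, 103, 155, 90.7 and 73.7 CPM in VSG 1 to VSG 5, against 174, 116, 69.3, 115 and 193 CPM in sham 1 to sham 5. Sham 1 and sham 5 were the highest, sham 3 the lowest, and the groups overlapped. The log2 fold change was -0.27 (-0.89 to 0.35, edgeR adjusted p = 0.977).

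Slc4a4, which brings bicarbonate into the cell, stood at 153, 110, 182, 173 and 113 CPM in VSG 1 to VSG 5, against 125, 136, 66.6, 86.8 and 161 CPM in sham 1 to sham 5. Its lowest values were those of sham 3 and sham 4, and the groups overlapped. Slc4a4 averaged 146 ± 33.5 CPM over the VSG libraries and 115 ± 38.0 CPM over the sham libraries (SD, n = 5 each), with a log2 fold change of 0.35 (-0.20 to 0.89, edgeR adjusted p = 0.977). Of the 3 genes of secretion, Cftr and Slc12a2 had fold changes below 0 and Slc4a4 above 0, and every interval included 0.

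Markers of crypt cells were set beside Cftr and Slc12a2, as crypts are a classic site of both. The mean log2 CPM of 8 crypt markers, among them the stem cell receptor Lgr5 and the proliferation gene Mki67, was 4.32 in VSG 5 and 4.58 in VSG 4, where Slc12a2 stood at 73.7 and 90.7 CPM. It was 5.54 in sham 5 and 5.52 in sham 1, where Slc12a2 stood at 193 and 174 CPM. Other libraries departed from that order. Sham 3 had a crypt mean of 4.96 and the lowest Slc12a2 and Cftr, sham 4 had a crypt mean of 5.39 with Slc12a2 at 115 CPM, and VSG 4 had a higher Cftr, at 93.7 CPM, than VSG 1, at 84.7 CPM with a crypt mean of 4.99. All 8 crypt markers had a fold change below 0, as did all 8 smooth muscle markers and 9104 of the 15678 genes tested. The crypt mean was 4.86 ± 0.39 over VSG libraries, against 5.33 ± 0.24 over sham libraries (SD, n = 5 each). The exact two-sided permutation p of that difference was 0.0635. A fit with the crypt mean as a covariate was chosen after seeing the data. In it the log2 fold change was 0.28 for Cftr and 0.38 for Slc12a2 (edgeR adjusted p = 0.975 for both). The crypt mean was itself lower over the VSG libraries, so that fit cannot separate crypt content from surgery. The part of crypt content in the values of Cftr and Slc12a2 was not tested. In bulk tissue, fewer cells of a type and less RNA per cell cannot be told apart.

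**Figure D2:**
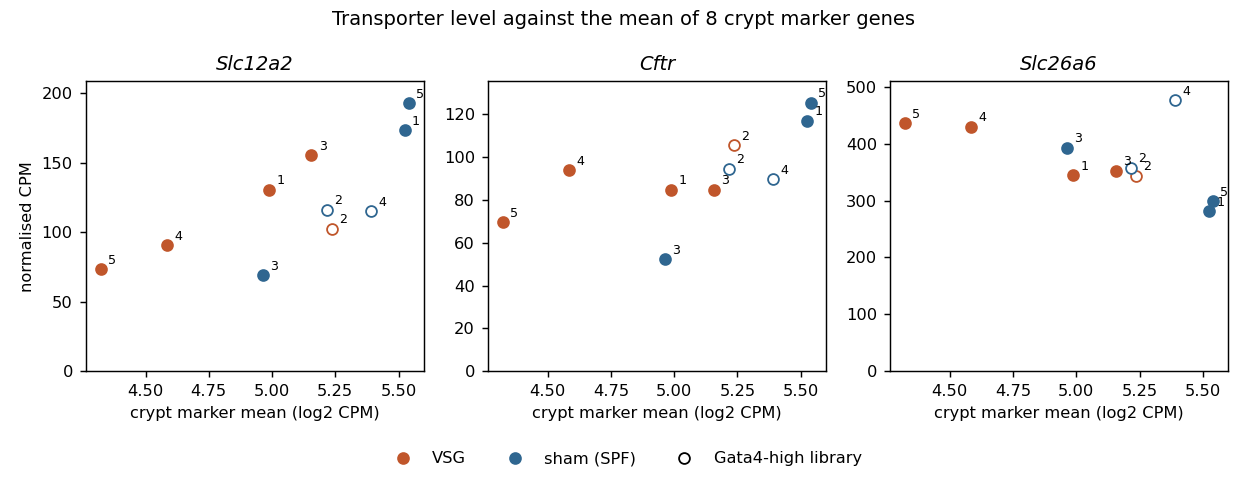
Normalised CPM of Slc12a2, Cftr and, for comparison, the apical exchanger Slc26a6 (vertical) against the mean log2 CPM of 8 crypt marker genes (horizontal), 1 point per library with its replicate number; open points are the Gata4-high libraries. Sham 1 and sham 5 have the highest crypt means and the highest Slc12a2 and Cftr, while their Slc26a6, at 281 and 299 CPM, is the lowest.

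Slc13a1, which takes up luminal sulphate with Na+, divided the libraries most sharply. It stood at 491, 18.7, 409, 739 and 611 CPM in VSG 1 to VSG 5, against 551, 53.2, 681, 65.4 and 375 CPM in sham 1 to sham 5. The 3 Gata4-high libraries were the lowest, at 18.7 to 65.4 CPM, against 375 to 739 CPM in the other 7, and the medians of both sets differed 10.4-fold. VSG and sham overlapped, with a log2 fold change of 0.39 (-1.48 to 2.27, edgeR adjusted p = 0.985). In the 7 libraries it was 0.07 (-0.55 to 0.69, edgeR adjusted p = 0.957), with 563 ± 144 CPM in VSG (SD, n = 4) and 536 ± 154 CPM in sham (SD, n = 3).

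The comparison of Gata4-high libraries with the other 7 is a description of values, since those libraries were picked from the data. Of the 8 members, 3 did not overlap between them, Slc9a3 and Slc26a3 being higher and Slc13a1 lower in the Gata4-high libraries. Of all 15678 genes tested, 11.7% did not overlap, 6.08% being higher and 5.64% lower. The other 5 members overlapped, with Slc26a6 at 344 to 476 CPM in Gata4-high libraries and 281 to 436 CPM in the others, and Cftr at 89.5 to 106 CPM and 52.2 to 125 CPM.

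**Figure D3:**
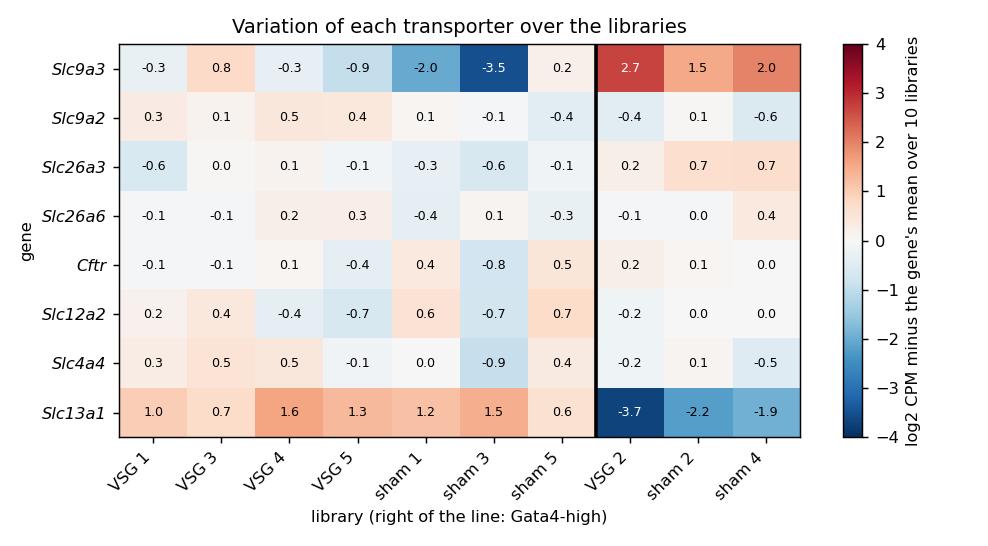
Log2 CPM of each transporter (rows) in each library (columns), minus that gene's mean over the 10 libraries; red is above and blue below the mean, and the Gata4-high libraries stand right of the line. Slc9a3 and Slc13a1 change in opposite directions across the line, and sham 3 is the lowest library for Slc9a3, Slc26a3, Cftr, Slc12a2 and Slc4a4.

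No member was called between VSG and sham with edgeR's quasi-likelihood test at an adjusted p under 0.05, and 0% of the 15678 genes tested were called. DESeq2 called 0.0702% of genes and limma-voom 0%, with 0 of the 8 members in either. At an unadjusted p under 0.05 there were 0 of 8 members with edgeR, DESeq2 or limma-voom, against 3.8% of all genes with edgeR (1.88% higher and 1.91% lower in VSG), 4.64% with DESeq2 and 3.46% with limma-voom. The groups overlapped for all 8 members, and did not for 0.549% of all genes (0.255% higher and 0.293% lower in VSG). Fold changes were above 0 for 5 members and below 0 for 3, with a median of 0.20 on the log2 scale, against -0.05 over all genes tested. Of all genes tested, 41.9% had a fold change above 0.

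In the 7 libraries without the Gata4-high ones, 6 members had a fold change above 0, against 43.2% of all genes. Below 0 were 2 members, Cftr and Slc12a2. Again 0 were called, as were 0% of 15911 genes. At an unadjusted p under 0.05 there was 1 member, Slc9a2, against 6.96% of all genes. Slc9a2 was also the 1 member whose groups did not overlap, which held for 8.14% of all genes and, in the direction of higher values in VSG, for 4.37%. Slc9a3 had the widest interval there, with a log2 fold change of 0.95 (-0.80 to 2.70). The epithelial marker mean, over 10 genes, was 10.40 ± 0.19 log2 CPM over all VSG libraries, against 10.22 ± 0.35 over all sham libraries (SD, n = 5 each), with an exact permutation p of 0.325. With that mean as a covariate in the 10-library fit, 0 members were called. The log2 fold change was then 1.54 for Slc9a3, 0.055 for Slc26a3, 0.11 for Cftr and -0.088 for Slc13a1. Without the covariate, Slc9a3 was at 0.32 ± 0.96 (SE). The epithelial mean was 9.92 to 10.21 in the Gata4-high libraries and 9.95 to 10.79 in the other 7. That fit therefore does not separate epithelial content from the Gata4 split, and the part of each was not tested.

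**Figure D4:**
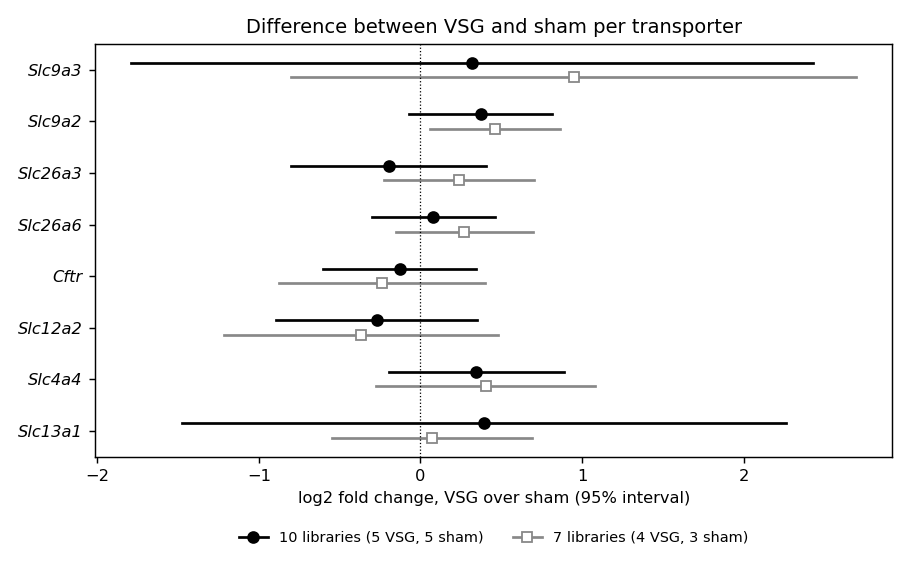
Log2 fold change of VSG over sham for each transporter with its 95% interval, in all 10 libraries (filled circles) and in the 7 libraries that are not Gata4-high (open squares). The interval of Slc9a2 in the 7 libraries, 0.06 to 0.86, is the 1 interval that leaves out 0.

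Set against transcript length, the members differed in level. With the longest coding transcript of GENCODE M21 as the length, Slc13a1 had a median of 180.5 CPM per kilobase over the 10 libraries, with a range from 7.51 to 296. Slc26a6 followed at 81.4 (64.4 to 109), Slc9a2 at 47.3 (30.1 to 61.7) and Slc26a3 at 34.2 (22.7 to 57.6). Slc12a2 at 17.8, Slc4a4 at 16.5 and Cftr at 14.5 had ranges that overlapped broadly, between 8.28 and 29.6 in all. Slc9a3 was lowest, at a median of 4.59 CPM per kilobase (0.392 to 30.4). The order differed in the Gata4-high libraries, where Slc13a1 was at 7.51 to 26.2 CPM per kilobase, below Slc26a6 at 78.8 to 109, and Slc9a3 was at 13.3 to 30.4, overlapping Cftr at 14.2 to 16.7. Over all libraries, the ranges of Slc26a6 and Slc9a2 did not overlap, whereas Slc9a2 and Slc26a3 did. The levels depend on the transcript: the principal transcripts of Slc9a3 and Slc26a6 are shorter, at 2490 and 2402 bases against 5118 and 4362. The mean of Slc9a3 over the 10 libraries was 8.70 CPM per kilobase by the longest transcript and 17.9 by the principal one. That of Cftr was 14.5 by either, so the comparison of Slc9a3 with Cftr changes with the length used. The mean of Slc26a6 was 85.1 CPM per kilobase by the longest transcript and 155 by the principal one. Slc13a1 had a mean of 160 by either, so its lead over Slc26a6 also depends on the length used.

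Other genes of epithelial ion transport were taken from 10 lists by role, with 55 genes of which 48 were tested. None was called with edgeR, DESeq2 or limma-voom. Fold changes were above 0 for 30, or 62.5%, and below 0 for 18, with a median of 0.09 on the log2 scale. Of all genes tested, 41.9% were above 0, with a median of -0.05. Below an unadjusted p of 0.05 lay 4 genes with edgeR, 8.33% against 3.8% of all genes, 5 with DESeq2 against 4.64% of all genes, and 4 with limma-voom against 3.46%. In the 7 libraries without the Gata4-high ones, 47 were tested and 0 called with edgeR. Below an unadjusted p of 0.05 there lay 9, or 19.1%, against 6.96% of all genes. Without overlap, 6 were higher and 1 lower in VSG there, against 4.37% and 3.77% of all genes.

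Among the genes listed for anion exchange and bicarbonate transport, Ahcyl1 included, 4 of 7 tested were above 0. Slc26a2, which carries sulphate, stood at 411, 324, 442, 454 and 389 CPM in VSG 1 to VSG 5, against 345, 291, 247, 115 and 290 CPM in sham 1 to sham 5. The groups overlapped only through VSG 2 and sham 1, with a log2 fold change of 0.65 ± 0.25 (SE, edgeR adjusted p = 0.977). In the 7 libraries it was 0.53 ± 0.17 (SE, edgeR adjusted p = 0.633), with no overlap. Slc26a1, another sulphate carrier, was below 1.5 CPM in every library.

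Among genes of sodium entry, Slc9a4 had the largest fold change, 1.07 ± 0.45 (SE, edgeR adjusted p = 0.977), at no more than 1.11 CPM in VSG and 0.487 CPM in sham. The epithelial sodium channel subunits Scnn1b and Scnn1g were too low to be tested, with at most 4 and 14 counts in a library. Among the scaffolds that bind apical transporters, 4 of 5 were above 0. Ezr, which links membrane proteins to actin, stood at 1502 to 2353 CPM in VSG and 930 to 1818 CPM in sham (log2 fold change 0.51 ± 0.24 SE, edgeR adjusted p = 0.977). Slc9a3r2 (NHERF2), a PDZ scaffold of NHE3, was the exception, at 12.3 to 15.9 CPM in VSG and 15.7 to 19.4 CPM in sham (log2 fold change -0.32 ± 0.12 SE, edgeR adjusted p = 0.977).

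Signals of secretion were above 0 for 5 of 7 genes. Ptger4, a receptor for prostaglandin E2 that raises cyclic AMP, stood at 104, 74.2, 120, 79.9 and 103 CPM in VSG 1 to VSG 5, against 64.0, 63.4, 83.1, 83.2 and 59.8 CPM in sham 1 to sham 5. Its groups overlapped, and its log2 fold change was 0.45 ± 0.16 (SE, edgeR adjusted p = 0.977). Genes of K+ recycling and the Na+/K+ pump were above 0 for 2 of 7, and Kcne3, a subunit of the basolateral K+ channel, had a log2 fold change of -0.34 ± 0.21 (SE, edgeR adjusted p = 0.977). Papss2, which makes the activated form of sulphate, stood at 106 to 146 CPM in VSG and, apart from 1679 CPM in sham 4, at 79.2 to 177 CPM in sham. Its log2 fold change was -1.76 ± 0.83 in the 10 libraries and 0.45 ± 0.18 in the 7 (SE, edgeR adjusted p = 0.977 and 0.696).

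**Figure D5:**
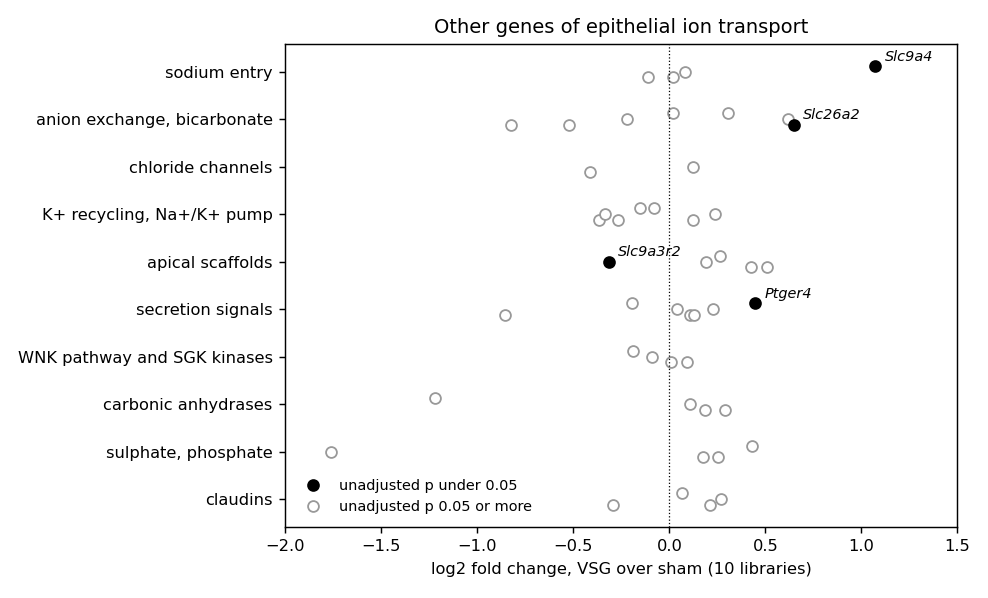
Log2 fold change of VSG over sham for 48 tested genes of ion transport, 1 point per gene, in rows by role; filled points have an unadjusted edgeR p under 0.05. The 4 filled points are Slc9a4, Slc26a2 and Ptger4 above 0 and Slc9a3r2 below 0, and none passed the adjusted threshold.

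Of the 48 genes, 14 did not overlap between the Gata4-high libraries and the other 7, 9 higher and 5 lower, against 11.7% of all genes. By ratio of medians the widest was Adora2b, low in both sets, at 5.07 to 8.33 CPM against 0.120 to 0.858 CPM. Car2 was higher, at 6.43 to 34.9 CPM against 1.28 to 3.61 CPM. Car12 was lower, at 7.96 to 13.8 CPM against 34.7 to 59.0 CPM. Vipr1 was higher, at 362 to 439 CPM against 257 to 358 CPM. Guca2b (uroguanylin) was higher, at 959 to 1151 CPM against 264 to 626 CPM in the other 7, as were the guanylin receptor Gucy2c at 414 to 489 CPM against 217 to 400 CPM and the cyclic GMP-dependent kinase Prkg2 at 90.3 to 105 CPM against 43.6 to 82.9 CPM. Guca2a (guanylin) overlapped and leaned the other way, at 62.7 to 615 CPM in the Gata4-high libraries and 509 to 1345 CPM in the others. Cldn15, a claudin that forms Na+ pores between cells, stood at 620 to 757 CPM in the Gata4-high libraries and 242 to 387 CPM in the others. Cldn2, another cation-pore claudin, went the other way, at 34.8 to 148 CPM in the Gata4-high libraries and 175 to 390.1 CPM in the others. The Cl-/bicarbonate exchanger Slc4a2 of the basolateral membrane was also lower, at 87.0 to 98.3 CPM against 120 to 204 CPM.

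The genes whose course over the 10 libraries came closest to each member were found by the root mean square difference of centred log2 CPM among 11009 genes whose mean reached 5 CPM. For Slc13a1 they were Card9, an adaptor of innate immune signalling, and the homeobox genes Hoxb6 and Hoxb7, at 0.59 to 0.62 log2 units. For Slc9a3 they were Pdk4, a kinase that inhibits pyruvate dehydrogenase, Creb3l2 and Ckb, at 0.66 to 0.92. For Slc9a2 they were Unc5b, Csnk2a1 and the anion exchanger family member Slc26a11, at 0.075 to 0.10. Slc26a3 was closest to Rcbtb1, Nudt12 and Gm11407 (0.13 to 0.16), and Slc26a6 to Acadm, Ap1m1 and AI316807 (0.11 to 0.12). Cftr was closest to Tia1, Cep152 and Mdc1 (0.10 to 0.11), Slc12a2 to Auts2, Plxnb1 and Ptk7 (0.13 to 0.16), and Slc4a4 to Nhsl1 and Chm (0.15 to 0.17). Distances are smaller for members that vary less, so they rank genes within a member only.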

How the data were processed

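Estimated counts by Ensembl gene were deposited as 1 table a library, under names that say RPKM. They sum to 15364651 to 34058181, and 33.3% of the values above 0 (61.2% with zeros) are exactly whole. They were read as estimated counts and rounded. The authors also deposited log2 values, which equal the log2 count less a constant per library and the sham median per gene (largest SD of the constant 3.7e-07). Per the submitters' processing notes, DESeq and mm9 were used. No aligner is named in the sources used here. Libraries were TruSeq RNA, 50-base single-end, per the labels' protocols, and strand marking is not given.

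Genes passing filterByExpr (15678 of 36401) were tested with edgeR 4.0.16 (R 4.3.3): TMM, quasi-likelihood F test, surgery as the term, Benjamini-Hochberg over all genes, threshold 0.05. SE is the fold change over the root of F, and log2 CPM uses a prior count of 2. DESeq2 1.42.0 and limma 3.58.1 ran on the same genes. The fit was tested on simulated data. The 7-library fit left out the Gata4-high libraries. The members, gene lists and alternatives were chosen with earlier results of these data known. Named genes are the members, the 8 genes of the pathway lists with the lowest p, the 3 closest genes per member (1 of them, for Slc4a4, is not reported here), and Gata4, Lct, Fabp6 and Epcam. Lgr5, Mki67, the other upper small intestine markers, Scnn1b, Scnn1g, Gm15592, the named large intestine markers and the pathway genes of the Gata4 comparison were chosen after their values were seen. Replicate numbers were not shown to pair the mice. The lowest count of a member was 51.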

Additional observations from a re-analysis of the deposited data

Results flagged for a closer look

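The groups examined were the 8 members and 8 named pathway genes, each in VSG and sham, 32 groups of 5 libraries. In 2 of them, 1 library lay far from the other 4, by a gap over 0.71 of the range. That limit gives about 1 in 20 by chance for normally distributed values, and CPM were used without logs. The 8 pathway genes were also picked for the lowest p in the same libraries. The chance rate for these groups was not tested. Slc9a3 in VSG 2 stood at 156 CPM, with the next VSG library at 40.4 CPM and the lowest at 12.4 CPM, a gap of 0.804 of the range. In log2 CPM less the gene's mean, Slc9a3 was at 2.69 in VSG 2, 0.75 in VSG 3 and -0.94 in VSG 5. On that scale the gap was below the limit of 0.71. VSG 2 is the Gata4-high VSG library. Papss2 in sham 4 stood at 1679 CPM, with the next sham library at 177 CPM and the lowest at 79.2 CPM, a gap of 0.939 of the range. Sham 4 also had the highest Gata4, at 183 CPM. The other Gata4-high libraries, VSG 2 and sham 2, had Papss2 at 139 and 177 CPM.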

How the results depend on the processing

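Members and pathway genes called stayed at 0 under every alternative run, and genes called under every one but DESeq2, which called 11. Direction was less stable. Slc26a3 was at 0.24 without the 3 Gata4-high libraries, 0.026 with the upper small intestine covariate and 0.055 with the epithelium covariate. Slc13a1 was at -0.14, -0.088 and -0.49 with the upper small intestine, epithelium and crypt covariates. Cftr was at 0.11 and 0.28 with the epithelium and crypt covariates, and with the crypt covariate, added after seeing the data, Slc12a2 was at 0.38 and Slc26a6 at -0.15. Slc9a3, at 0.32 in the main comparison, was at 1.54 and 1.39 with the epithelium and crypt covariates. The cause was not tested. Leaving out 1 library at a time, Slc9a3 ran from -0.80 to 0.96 and Slc26a3 from -0.33 to 0.00075. The signs of the other 6 held but their sizes moved, Slc9a2 at 0.30 to 0.50, Slc26a6 at 0.0072 to 0.21, Cftr at -0.28 to -0.00028 (without sham 5), Slc12a2 at -0.43 to -0.093 (without sham 5), Slc4a4 at 0.21 to 0.51 and Slc13a1 at 0.12 (without sham 2) to 0.80 (without sham 3). Marker means (VSG minus sham) ran from 0.12 to 0.33 for epithelium, -0.56 to -0.34 for crypt, -1.31 to 0.061 for upper small intestine, -0.76 to 0.24 for smooth muscle and -0.040 to 1.26 for B cell follicles. Without the Gata4-high libraries they were 0.14 for upper small intestine, 0.15 for smooth muscle and -1.30 for follicles. The crypt difference with upper quartile factors was -0.52 (exact permutation p = 0.0476), and the same test gave 0.0397 for crypt without VSG 2 and without sham 3, and 0.0476 for epithelium without sham 3. With the replicate block 0 genes were called. Same-numbered VSG and sham libraries deviated with correlations of -0.32 to 0.18, of which 1 of 5 was over 0.1, and 0 of 5 VSG libraries matched their own number best.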

Other observations

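Other marker lists gave these means of log2 CPM in VSG and sham (SD, n = 5 each). Ileal enterocyte markers were at 7.95 ± 2.54 in VSG and 6.39 ± 3.04 in sham (exact permutation p = 0.294), and upper small intestine markers at 3.35 ± 1.48 and 4.01 ± 2.05 (exact permutation p = 0.651). Smooth muscle markers were at 6.32 ± 0.49 in VSG and 6.53 ± 1.49 in sham (exact permutation p = 0.77), B cell follicle markers at 3.12 ± 1.71 and 2.48 ± 2.37 (exact permutation p = 0.603), T cell markers at 2.06 ± 0.76 and 2.45 ± 0.65 (exact permutation p = 0.397), and enteric neuron and glia markers at 0.97 ± 0.31 and 1.22 ± 1.17 (exact permutation p = 0.698). Of 7 large intestine markers, 2 were tested, with means of 2.79 ± 0.50 in VSG and 2.98 ± 0.69 in sham (exact permutation p = 0.611). Of 5 pancreas markers only Cela1 was tested, and Cpa1, Prss1, Pnlip and Ctrb1 had at most 3 counts in any library.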
